A study of Mus musculus with 2 samples.

Results

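The genes described here were 10 genes of the piRNA pathway and of germ cell RNA binding, Dazl, Ddx4, Mael, Asz1, Mov10l1, Piwil2, Tdrd1, Tdrd9, Tdrd12 and Tex19.1, in mouse embryonic stem (ES) cells with and without a mutant histone H3.3. They were taken by gene name from the 26127 probes that were quantitated in both cell lines. Some gene names, such as Pgap1 and Hdac4, have more than 1 probe, but each of the 10 genes had 1 probe of its own. RNA-seq was available as 1 library per cell line, so none of the values has a replicate and no difference between the lines could be tested. WT cells were unmodified ES cells of strain 129S1/SvImJ (H3f3a +/+, H3f3b +/+). G34R cells were ES cells of the same strain in which 1 copy of H3f3a carried a targeted glycine to arginine substitution at residue 34 of H3.3 (H3f3a +/G34R, H3f3b +/+), expressed from the endogenous H3f3a promoter once Cre had removed a WT minigene and a neo cassette. Both lines were below passage 20 and grew with 15% foetal calf serum and leukaemia inhibitory factor. Mutant cells were selected as clones, and how many clones the library represents is not given in the sources used here. With 1 library of each line the mutation, the clone and the culture cannot be told apart. In these bulk libraries fewer cells that express a gene and less of its RNA per cell also cannot be told apart.

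In germ cells, piRNAs are small RNAs bound by PIWI proteins, which guide the silencing of transposons by cleavage of their transcripts and by DNA methylation. The pathway works in perinuclear granules called nuage, where tudor domain proteins hold PIWI proteins together with RNA helicases and other factors. Dazl and Ddx4 belong to the wider germ cell RNA-binding machinery, and many genes of both kinds are kept silent in somatic cells by methylation of CpG-rich promoters. ES cells, which resemble the early embryo rather than germ cells, are known to express several of them.

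The promoters are shown first because DNA methylation at CpG dinucleotides is the known form of repression of many of these genes. RefSeq promoter windows (assembly GRCm38.p6, which differs from the mm9 assembly of the expression files) matched 9 of the 10 genes, Piwil2 having no entry. The 250 bases before the annotated start are given 5′ to 3′ on the strand of the gene, with CpG dinucleotides in capitals, for 2 genes that were lower in the G34R library (Dazl and Mael), for the 1 that was more than 2-fold higher (Ddx4) and for the gene with the highest level in both libraries (Tex19.1).
Dazl, chr17:50293621-50293870, minus strand: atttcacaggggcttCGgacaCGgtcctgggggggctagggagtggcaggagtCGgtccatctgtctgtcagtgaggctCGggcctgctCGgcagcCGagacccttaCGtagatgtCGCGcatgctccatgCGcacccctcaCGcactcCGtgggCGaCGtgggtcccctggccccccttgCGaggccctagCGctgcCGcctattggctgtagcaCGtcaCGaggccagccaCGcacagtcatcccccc
Mael, chr1:166238745-166238994, minus strand: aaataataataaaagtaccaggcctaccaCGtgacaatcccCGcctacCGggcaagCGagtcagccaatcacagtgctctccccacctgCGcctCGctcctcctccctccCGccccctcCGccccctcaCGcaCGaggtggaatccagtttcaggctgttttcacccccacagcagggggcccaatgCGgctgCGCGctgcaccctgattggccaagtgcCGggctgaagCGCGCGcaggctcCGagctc
Ddx4, chr13:112652311-112652560, minus strand: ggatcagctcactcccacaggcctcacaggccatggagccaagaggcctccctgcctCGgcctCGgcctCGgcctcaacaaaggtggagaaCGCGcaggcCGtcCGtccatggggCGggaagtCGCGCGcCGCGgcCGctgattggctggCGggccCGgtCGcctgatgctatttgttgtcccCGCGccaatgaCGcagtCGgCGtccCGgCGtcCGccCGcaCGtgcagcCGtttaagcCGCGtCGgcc
Tex19.1, chr11:121145893-121146142, plus strand: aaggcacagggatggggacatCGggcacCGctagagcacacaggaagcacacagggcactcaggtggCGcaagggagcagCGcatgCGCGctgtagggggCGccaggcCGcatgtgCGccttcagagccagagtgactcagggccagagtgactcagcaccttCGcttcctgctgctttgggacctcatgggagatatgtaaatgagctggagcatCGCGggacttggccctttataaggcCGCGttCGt

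The window of Ddx4 held 31 CpG dinucleotides, more than 94.8% of the 32851 RefSeq promoter windows of this length. Dazl had 20, Mael 18 and Tex19.1 15, against a median of 6 over all windows. Mov10l1 had 19 and Asz1 15. Tdrd9 had 8, the 2 windows of Tdrd12 had 6 and 5, and the 3 windows of Tdrd1 had 11, 22 and 3, since Tdrd12 and Tdrd1 have more than 1 annotated start. CpG-rich promoters were thus found both at genes that were lower and at the gene that was higher in the G34R library. The E-box CACGTG, written caCGtg in the sequences of Mael and Ddx4 above, which is its own reverse complement and is known to be bound by MAX with partners such as MGA, was present in windows of 5 of the 9 genes (Mael, Tdrd9, Ddx4, Mov10l1 and Tdrd1). By window this was 6 of 12 (50%), against 6.02% of all windows, but 2 of the 6 are overlapping windows of Tdrd1 that hold the same CACGTG. The E2F-type motif TCCCGC, searched as TCCCGC and GCGGGA, was present in windows of 3 genes (Mael, Tex19.1 and Ddx4), or 25% of the 12 windows against 16.9% of all windows. Both motifs contain a CpG, and a match is a run of letters only, not a site where a factor was seen to bind.

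Before the genes are compared, the facts of the libraries that bear on them are as follows. The files give read density corrected for transcript length and for the number of reads in the library (RPKM) to 2 decimals and no read counts. From the steps of low RPKM values in short single-exon genes, the depth was estimated at about 88050000 reads for WT and 72500000 reads for G34R, so that 1 read on a transcript of 1 kb was worth 0.0114 and 0.0138 RPKM. Reads per gene were estimated from these depths, and 95% intervals cover counting error only, since libraries amplified by PCR without molecular identifiers do not count independent molecules. H3f3a had 8.17 RPKM in WT and 4.89 RPKM in G34R cells, a value that does not separate the mutant from the WT allele. ES cell markers were abundant in both libraries, among them Tdgf1 (261.25 and 255.61 RPKM) and Pou5f1 (194.34 and 189.46 RPKM), while Nanog (127.07 and 52.24 RPKM) and Zfp42 (180.30 and 16.40 RPKM) were more than 2-fold lower in G34R cells. The 8 ES cell markers summed to 952.67 and 733.49 RPKM. None of the 10 genes lies on chromosome 8, X or Y, whose expressed probes had median log2 ratios of 0.35, -0.25 and -3.91. On the chromosomes of the 10 genes these medians lay between -0.1 and 0, and centring on them, a setting added after the data were seen, left each log2 ratio of the 10 genes within its counting interval.

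The germ cell RNA-binding and piRNA genes split in the G34R library. Dazl, Mael, Tdrd12 and Asz1 were more than 2-fold lower, Ddx4 was more than 2-fold higher, and Mov10l1, Tex19.1, Piwil2 and Tdrd1 did not pass 2-fold. Tdrd9 was also lower but stayed under 0.25 RPKM in both libraries, the minimum that a gene had to reach in 1 library to be counted. In all, 7 genes had lower and 3 had higher RPKM in G34R than in WT cells. The 4 genes past 2-fold down, of 9 over the minimum and 10 in all, stand beside 9.64% of the 13366 expressed probes. The 1 gene past 2-fold up stands beside 5.79%. Asz1 passed the minimum through its WT value alone and Tdrd1 through its G34R value alone. The genes had been selected with earlier results of these libraries known, so these counts are descriptions.

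**Figure D1:**
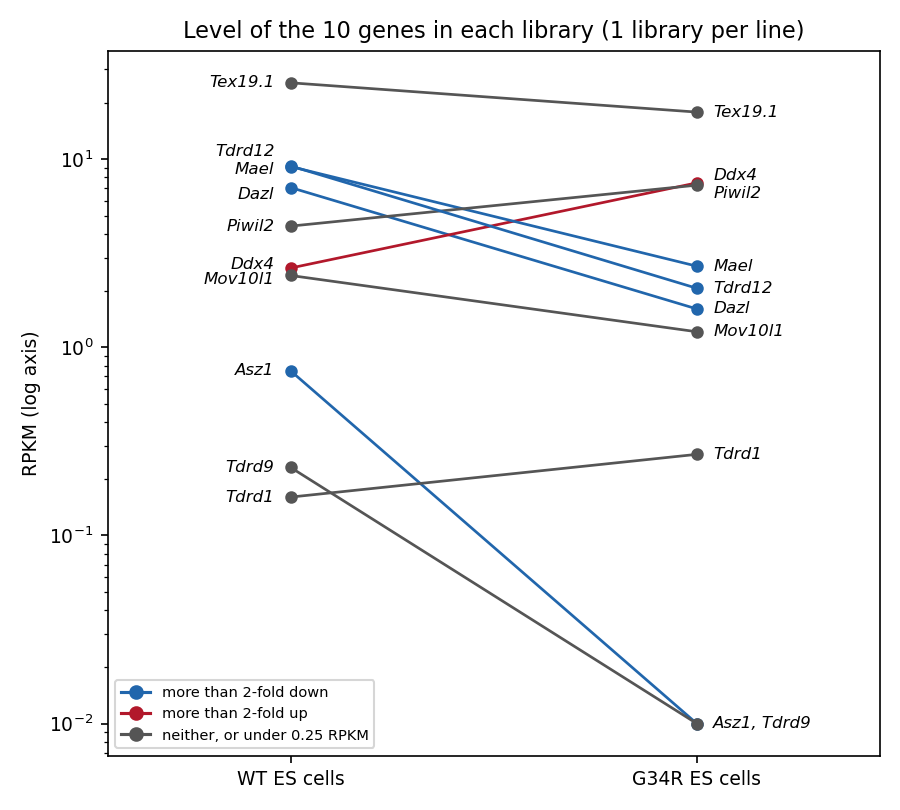
RPKM (log axis) of each of the 10 genes in the WT library on the left and the G34R library on the right, with 1 line per gene coloured by whether it passed 2-fold. The lines of Dazl, Mael and Tdrd12 run from between 7.07 and 9.21 RPKM down to between 1.6 and 2.70 RPKM and cross that of Ddx4, which runs from 2.64 up to 7.49 RPKM.

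The 2 germ cell RNA-binding proteins went in opposite directions. Dazl, which binds the 3′ ends of germ cell mRNAs and promotes their translation, spans chr17:50418719-50432924 in mm9 on the minus strand. It had 7.07 RPKM in the WT library against 1.6 RPKM in the G34R library, from about 1876 and 350 reads. It was thus 4.42-fold lower in the G34R library, a log2 (G34R/WT RPKM) of -2.14 (counting interval -2.31 to -1.98). Ddx4, the DEAD-box helicase also known as mouse vasa homologue, spans chr13:113388541-113442518 on the minus strand. Its level was 2.64 RPKM in WT against 7.49 RPKM in G34R cells, from about 662 and 1547 reads. The log2 ratio was 1.5 (1.37 to 1.64), or 2.84-fold higher. Ddx4 had 0.373 times the RPKM of Dazl in the WT library and 4.68 times in the G34R library.

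Piwil2 is the PIWI protein MILI, which binds piRNAs in fetal and postnatal male germ cells. It lies at chr14:70772287-70828901 on the minus strand. Its level was 4.41 RPKM in WT and 7.28 RPKM in G34R cells, from about 1908 and 2593 reads. This was 1.65-fold higher in the G34R library, with a log2 ratio of 0.72 (0.64 to 0.81), so the counting interval lay above 0 and wholly below 2-fold. Mov10l1, the RNA helicase that binds piRNA precursor transcripts and starts their processing, lies at chr15:88813339-88885582 on the plus strand. It had 2.41 RPKM in WT and 1.21 RPKM in G34R cells, from about 894 and 370 reads. Its log2 ratio of -0.99 (-1.17 to -0.82) ended just short of 2-fold, and its counting interval spanned the threshold.

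The 3 genes for tudor domain proteins, which bind methylated arginines of PIWI proteins, did not share a level or a direction. Tdrd12, which acts in the production of secondary piRNAs, spans chr7:36254117-36322764 on the minus strand and was by far the highest of them in WT cells. It had 9.21 RPKM in WT and 2.06 RPKM in G34R cells, from about 3306 and 609 reads. The difference was 4.47-fold, a log2 ratio of -2.16 (-2.29 to -2.04). Tdrd9, a tudor domain helicase, lies at chr12:113209770-113307065 on the plus strand. It was near the floor in both, with 0.23 RPKM (about 97 reads) in WT and 0.01 RPKM (about 3 reads) in G34R cells. The log2 ratio was -4.52 (-7.04 to -3.14), a size that rests on a handful of reads and on values rounded to 2 decimals. Tdrd1, the scaffold that binds Piwil2 protein in nuage, lies at chr19:56900699-56944502 on the plus strand. It was low in both libraries, with 0.16 RPKM (about 77 reads) in WT and 0.27 RPKM (about 107 reads) in G34R cells and a log2 ratio of 0.75 (0.32 to 1.2).

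Mael and Asz1 encode further components of nuage. Mael, the mouse maelstrom homologue needed for transposon silencing in spermatocytes, spans chr1:168131516-168168875 on the minus strand. It had 9.14 RPKM in WT and 2.70 RPKM in G34R cells, from about 1244 and 303 reads. The level was 3.39-fold lower in the G34R library, a log2 ratio of -1.76 (-1.94 to -1.57). Asz1, also known as GASZ, which anchors nuage to mitochondria, spans chr6:18000964-18059061 on the minus strand. It had 0.75 RPKM (about 187 reads) in WT cells and was almost absent from the G34R library, at 0.01 RPKM (about 2 reads). Its log2 ratio was -6.23 (-9.32 to -4.39). The width of this interval comes from the few reads in G34R cells, but even its upper end lay well past 2-fold.

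Tex19.1, a mammal-specific gene active in germ cells, pluripotent cells and placenta and known for restraint of retrotransposons, spans chr11:121007457-121009633 on the plus strand. It was the most abundant of the 10 per kilobase in both libraries, with 25.48 RPKM in WT and 17.80 RPKM in G34R cells from about 4200 and 2416 reads. Its log2 ratio was -0.52 (-0.59 to -0.44), and 20.6% of expressed probes had a lower one. Its adjacent paralogue Tex19.2 had 0.87 and 0.42 RPKM, a log2 ratio of -1.05. Of the 50-base stretches of the annotated coding transcripts of Tex19.1, 2.67% also occur in those of Tex19.2, so few reads could be shared between them. Of the other 9 genes, 8 shared none with another gene's coding transcripts and Tdrd1 shared 0.0185%.

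**Figure D2:**
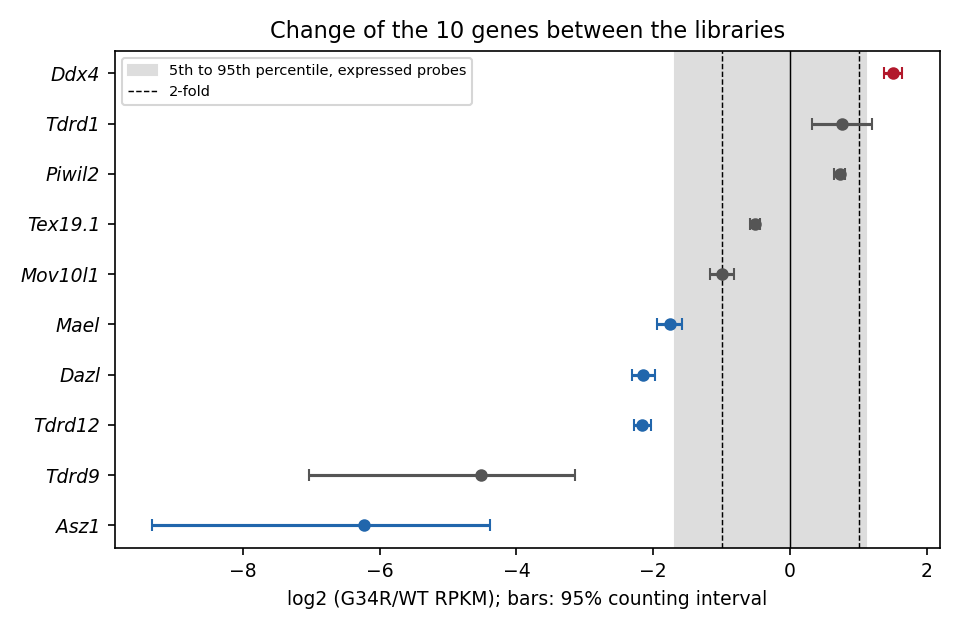
log2 (G34R/WT RPKM) of each of the 10 genes as points, with bars for the 95% counting interval, dashed lines at 2-fold and a grey band for the 5th to 95th percentile of expressed probes (-1.68 to 1.11). Ddx4 lies above the band, and Mael, Dazl, Tdrd12, Tdrd9 and Asz1 lie below it.

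Set against all expressed probes, the ratios of Dazl and Tdrd12 were low, with 3.50% and 3.46% of probes lower still, and that of Mael had 4.71% below it. Ddx4 was at the other end, with 97.2% of probes below it. Piwil2 and Tdrd1 had 90.1% and 90.7% of probes below them, and Mov10l1 had 9.75%. Large ratios were more frequent among weakly expressed genes, so the level matters for this comparison. Of the 4098 probes with at least 5 but less than 20 RPKM in the higher library, 3.95% were more than 2-fold down and 2.90% more than 2-fold up. This class held Dazl, Mael, Tdrd12, Ddx4 and Piwil2, of which 3 were down and 1 was up. Of the 2638 probes between 0.25 and 1 RPKM, the class of Asz1 and Tdrd1, 22.7% were down and 12.7% up.

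**Figure D3:**
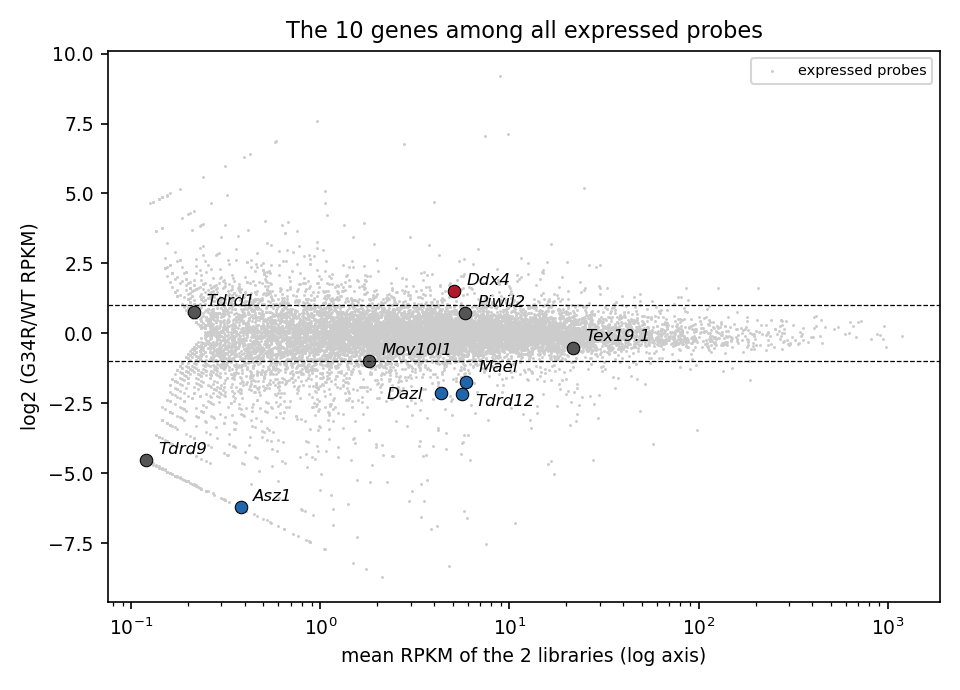
log2 (G34R/WT RPKM) against the mean RPKM of both libraries (log axis) for all 13366 expressed probes in grey and the 10 genes as labelled points, blue for more than 2-fold down and red for more than 2-fold up. Dazl, Mael and Tdrd12 lie below the main cloud at similar mean RPKM to Ddx4 above it, and Asz1 and Tdrd9 lie on the line of genes at 0.01 RPKM in G34R cells.

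The order of the genes by RPKM, a level per length that can be compared within a library, also differed. In WT cells it was Tex19.1, Tdrd12, Mael, Dazl, Piwil2, Ddx4, Mov10l1, Asz1, Tdrd9 and Tdrd1. The counting intervals overlapped between Tdrd12 and Mael, between Ddx4 and Mov10l1 and between Tdrd9 and Tdrd1, so the order within these pairs was not resolved. In G34R cells it was Tex19.1, Ddx4, Piwil2, Mael, Tdrd12, Dazl, Mov10l1 and Tdrd1, with Tdrd9 and Asz1 tied at 0.01 RPKM. Only the pair of Ddx4 and Piwil2 and the tied pair overlapped there. The 10 genes summed to 61.5 RPKM in WT and 40.43 RPKM in G34R cells. Tex19.1 made up 41.4% and 44.0% of these sums. The share of Ddx4 was 4.29% in WT and 18.5% in G34R cells, and that of Piwil2 was 7.17% and 18%. The shares of Tdrd12 (15.0% and 5.10%), Mael (14.9% and 6.68%) and Dazl (11.5% and 3.96%) were smaller in G34R cells. Piwil2 had 0.479 times the RPKM of Tdrd12 in the WT library and 3.53 times in the G34R library. The 10 genes lie on 10 different chromosomes, so no pair of them shares a neighbourhood.

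The nearest expressed probe on each side of each gene was compared to see whether adjacent genes had the same direction. Of these 20 neighbours, 5 (25%) were more than 2-fold down, 2 (10%) up and 13 neither, with a median log2 ratio of -0.20. These shares stand beside 9.64% down and 5.79% up over all expressed probes. Of the 5 down, Rftn1 and Tex19.2 were in the class of 0.25 to 1 RPKM in the higher library, with 22.7% down. Rftn1 passed the minimum through its WT value alone. Slc38a9 was in the class of 1 to 5 RPKM (9.26% down), and Gpa33 and Nudt19 were in that of 5 to 20 RPKM (3.95% down). Mael, Dazl and Tdrd12 each had 1 neighbour that was also more than 2-fold lower, and so had Tex19.1, which itself did not pass 2-fold. Gpa33, 34.9 kb from Mael, had 12.95 and 4.76 RPKM (log2 ratio -1.44), while Tada1 on the other side had 0.62 and 0.61 RPKM. Nudt19, 9.44 kb from Tdrd12, had 8.42 and 3.98 RPKM (-1.08), while Ccdc123 had 2.77 and 2.56 RPKM. Rftn1, 88.7 kb from Dazl, had 0.46 and 0.20 RPKM (-1.20), and Plcl2 had 0.53 and 0.48 RPKM. The neighbours of Ddx4 did not share its higher level. Slc38a9, 8.47 kb away, was lower, with 1.65 and 0.63 RPKM (-1.39), and Il6st had 11.46 and 10.67 RPKM. Beside Piwil2, Slc39a14 had 2.60 and 5.29 RPKM (1.02) and Polr3d 8.53 and 10.69 RPKM (0.33), both higher in G34R cells like Piwil2 itself. The nearest expressed probes to Asz1 were distant, Capza2 at 384 kb (9.89 and 10.43 RPKM) and Naa38 at 740 kb (4.70 and 3.86 RPKM). Neither shared the near absence of Asz1. Around Tdrd9, 2010107E04Rik had 67.78 and 54.82 RPKM and Aspg 1.29 and 3 RPKM. Both neighbours of Mov10l1 were at least as high in G34R as in WT cells, Pim3 with 43.75 and 58.29 RPKM and Trabd with 3.17 and 3.28 RPKM. Tdrd1 was higher in G34R cells between 2 genes that were slightly lower, A630007B06Rik (3.10 and 2.43 RPKM) and Vwa2 (0.38 and 0.30 RPKM). Tex19.1 lies between Tex19.2 and 1110031I02Rik (2.12 and 1.77 RPKM).

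**Figure D4:**
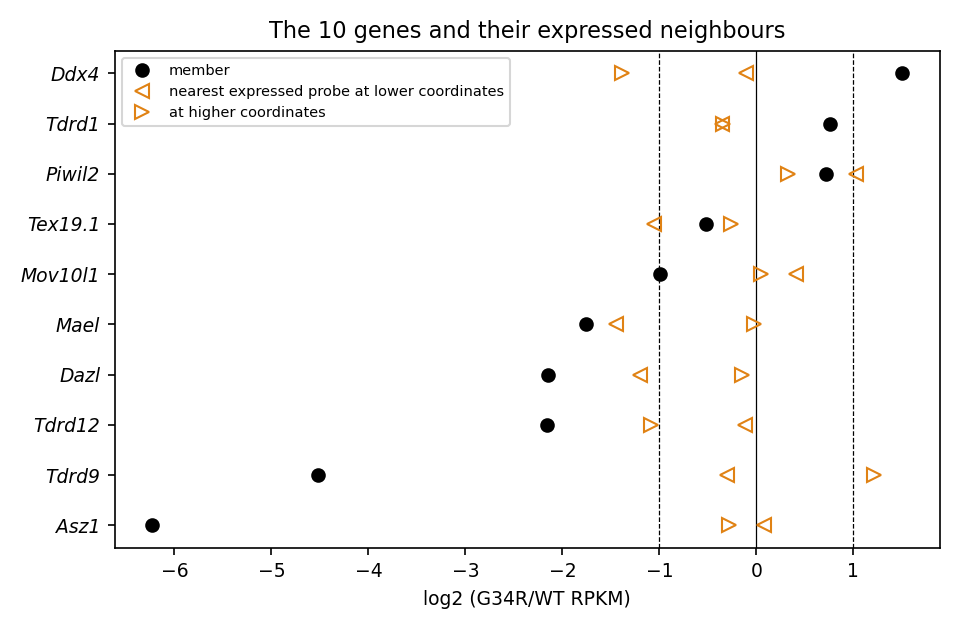
log2 (G34R/WT RPKM) of each of the 10 genes (filled circles) and of the nearest expressed probe at lower and at higher coordinates (open triangles), with dashed lines at 2-fold. For Asz1, Tdrd9, Dazl, Tdrd12, Mael and Mov10l1 the gene lies further left than both neighbours. For Ddx4 and Tdrd1 it lies further right than both, and Piwil2 and Tex19.1 lie between their neighbours.

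The rest of the piRNA pathway was compared through 21 other genes, all with a probe. Of these, 7 were more than 2-fold down, 1 was up, 8 were neither and 5 stayed under 0.25 RPKM, with a median log2 ratio of -1 over the 21, beside 9.64% down and 5.79% up over all expressed probes. The median rested on genes near the floor, since it was -0.31 with 0.1 RPKM and -0.12 with 1 RPKM added to both values. The corresponding median was -1.38 over the 10 genes themselves. It was -0.07 over the 13366 expressed probes and 0 over all probes, of which 7365 had 0 RPKM in both libraries. The strongest difference was that of Fkbp6, a testis co-chaperone of the piRNA pathway, with 11.87 RPKM in WT and 0.51 RPKM in G34R cells (log2 ratio -4.54). Morc1, needed for transposon silencing in male germ cells, was the most abundant of the 21 in WT cells and had 29.43 and 7.37 RPKM (-2). Gpat2, a mitochondrial partner of Piwil2, had 5.74 and 1.09 RPKM (-2.4). Gtsf1, a cofactor of PIWI proteins, had 1.58 and 0.28 RPKM (-2.5). Exd1 (0.44 and 0.11 RPKM), the tudor domain gene Tdrkh (0.61 and 0.24 RPKM) and Tex19.2 completed the genes past 2-fold down. Exd1 and Tdrkh passed the minimum of 0.25 RPKM through their WT value alone. Of all probes between 0.25 and 1 RPKM in the higher library, the class of Exd1, Tdrkh and Tex19.2, 22.7% were down. Rnf17, which encodes a further tudor domain protein, stayed at 14.10 and 11.38 RPKM. The gene past 2-fold up was Tex15, with 1.66 and 3.44 RPKM, and it lies on chromosome 8, where the median log2 ratio of expressed probes was 0.35. The other PIWI genes were low, Piwil4 with 0.38 and 0.19 RPKM and Piwil1 with 0.16 and 0.02 RPKM.

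None of 10 partners of the pathway that are also used outside germ cells passed 2-fold in either direction. Genes past 2-fold were few in any case at the levels of most of these partners. Of the 1769 probes with at least 20 RPKM in the higher library 4.35% were down and 3.50% up. From 5 to 20 RPKM the shares were 3.95% and 2.90%, and only Tdrd3 (1.74 and 1.76 RPKM) was weaker. A count of 0 in 10 is thus near the background. The log2 ratios of the 10 partners lay between -0.35 and 0.40. Among them were the arginine methyltransferase Prmt5, with 28.59 and 29.94 RPKM, and Mov10, the somatic relative of Mov10l1, with 30.59 and 28.17 RPKM. The most abundant were the chaperone genes Hsp90aa1 (342.05 and 269.24 RPKM) and Fkbp4 (123.28 and 127.40 RPKM).

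Of 23 other germ cell RNA-binding genes, 5 were more than 2-fold down, 1 was up and 3 stayed under 0.25 RPKM, with a median log2 ratio of -0.12 and the same background shares. Stk31, a tudor domain kinase-like gene, had 4.19 and 1.40 RPKM (-1.58). Ddx25, a germ cell helicase, had 3.35 and 1.27 RPKM (-1.4). Meioc, which stabilises the meiotic programme and was found under its older name Gm1564, had 3.87 and 1.87 RPKM (-1.05). Cpeb1 (0.67 and 0.25 RPKM) and the Dazl relative Boll (0.25 and 0.08 RPKM) were low throughout. Boll passed the minimum of 0.25 RPKM through its WT value alone. In the class of Cpeb1 and Boll, 0.25 to 1 RPKM in the higher library, 22.7% of probes were down. Adad2 was up, with 0.97 and 1.99 RPKM, and lies on chromosome 8 like Tex15. The most abundant genes of this list were Ybx1, with 138.77 and 148.08 RPKM, and Lin28a, with 60.79 and 46.69 RPKM, and neither passed 2-fold.

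The last germline list held 23 other genes that were listed as germline genes known for promoter methylation, most of them meiotic. Here 13 were more than 2-fold down, 1 was up, 8 were neither and 1 stayed under the minimum, and the median log2 ratio was -1.56 (-0.69 with 1 RPKM added to both values). Over all expressed probes 9.64% were down and 5.79% up. Of the 13, Taf9b, Taf7l, Dpep3, Tex101 and Meiob passed the minimum of 0.25 RPKM through their WT value alone. Of all probes between 0.25 and 1 RPKM in the higher library, the class of Taf7l, Dpep3, Tex101 and Meiob, 22.7% were down. From 1 to 5 RPKM, the class of Taf9b, 9.26% were down. Taf9b and Taf7l lie on chromosome X, where the median log2 ratio of expressed probes was -0.25. Smc1b, a meiotic cohesin, had 6.29 RPKM in WT and 0.44 RPKM in G34R cells (-3.84). Stra8, which opens the meiotic programme, had 4.53 and 0.52 RPKM (-3.12), and Rpl10l, a testis ribosomal protein gene, had 23.86 and 3.96 RPKM (-2.59). Tuba3a (23.74 and 2.26 RPKM) and Tuba3b (7.68 and 0.74 RPKM) share 32.4% and 27.4% of their 50-base stretches with other genes, mainly with each other, so their values are not independent. Hormad1 (8.23 and 2.79 RPKM), Slc25a31 (1.75 and 0.37 RPKM), Taf9b (1.13 and 0.18 RPKM), Taf7l (0.97 and 0.22 RPKM), Dpep3 (0.77 and 0.18 RPKM), Tex101 (0.48 and 0.04 RPKM), Meiob (0.30 and 0.06 RPKM) and Meioc were the others past 2-fold down. Cyct, the testis cytochrome c gene, was the exception in the other direction with 4.65 and 12.91 RPKM (1.47), as Ddx4 was among the 10 genes. Sycp3 (1.49 and 2.02 RPKM) and Sycp1 (0.58 and 0.76 RPKM) were slightly higher in G34R cells and did not pass 2-fold.

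**Figure D5:**
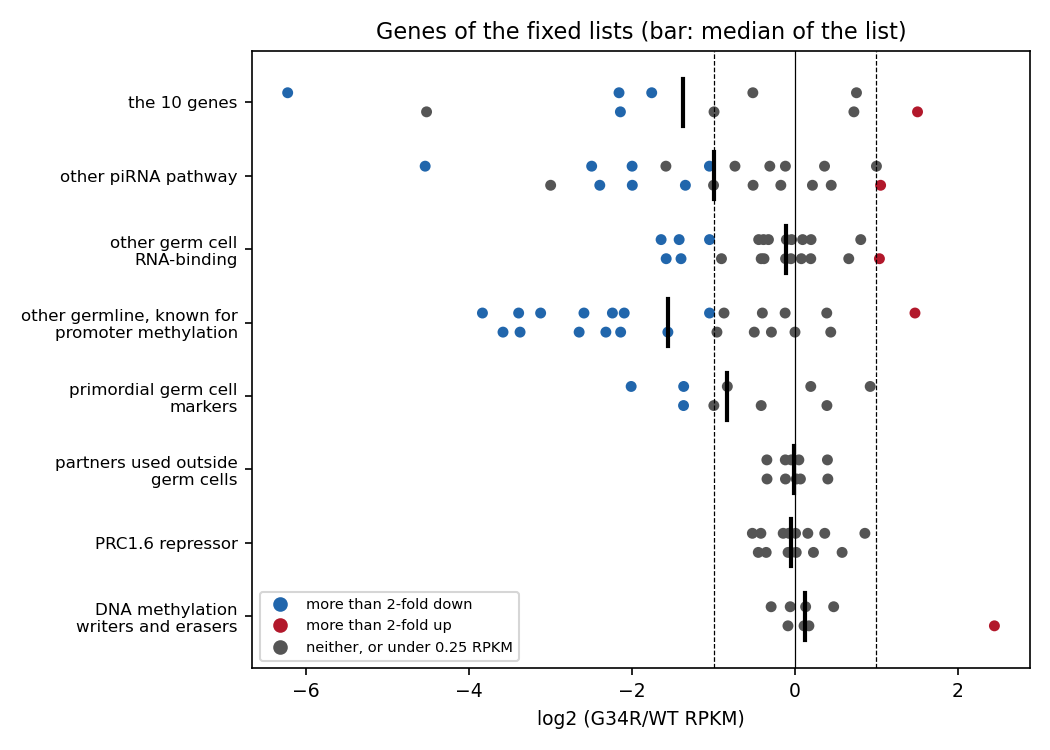
log2 (G34R/WT RPKM) of each gene above 0 RPKM in both libraries, by list, with blue for more than 2-fold down, red for more than 2-fold up, grey for the others and a black bar at the median of the whole list (values under 0.01 RPKM set to 0.01). Some genes of the germline lists lie to the left of the dashed line at 2-fold down. Ddx4, Cyct, Tex15 and Adad2 lie to the right of that at 2-fold up. The partners used outside germ cells and the PRC1.6 genes, most of them at 5 RPKM or more, stay between the dashed lines.

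The genes that are known to keep germline promoters silent were then read in the same way. None of 15 genes of PRC1.6, the Polycomb complex with MGA and E2F6 that represses germline genes in ES cells, passed 2-fold. Over all expressed probes 9.64% were down and 5.79% up, but shares were smaller at the levels of most of the 15. They were 3.95% down and 2.90% up from 5 to 20 RPKM in the higher library, and 4.35% and 3.50% at 20 RPKM or more. E2f6, Ring1 and Yaf2 were weaker, in the class of 1 to 5 RPKM with 9.26% down and 5.31% up. The absence of genes past 2-fold is thus again near the background. The log2 ratios of the 15 genes lay between -0.52 and 0.86. By the mean of both libraries the most abundant were Wdr5 (46.79 and 35.00 RPKM) and Tfdp1 (19.79 and 29.55 RPKM). Tfdp1 lies on chromosome 8, where the median log2 ratio of expressed probes was 0.35. Of 8 DNA methylation writers and erasers, 1 passed 2-fold. Dnmt1, the maintenance DNA methyltransferase, had 8.14 RPKM in WT and 44.43 RPKM in G34R cells, 5.46-fold higher with a log2 ratio of 2.45 (2.4 to 2.5), and 99.1% of expressed probes had a lower ratio. Its nearest expressed neighbours, Eif3g (89.81 and 71.93 RPKM) and S1pr2 (9.21 and 10.48 RPKM), did not share this. Uhrf1, which brings Dnmt1 to newly replicated DNA, had 53.22 and 51.10 RPKM, and Dnmt3l had 68.30 and 94.92 RPKM. The part of the Dnmt1 difference in the levels of the germline genes was not tested, and no DNA methylation was measured in these files.

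Of 9 markers of primordial germ cell specification, 3 were more than 2-fold down and none was up. Over all expressed probes 9.64% were down and 5.79% up. The 3 were Prdm1 (2.50 and 0.62 RPKM), Kit (10.60 and 4.11 RPKM) and Ifitm1 (27.91 and 10.81 RPKM), whereas Ifitm3 had 41.01 and 77.77 RPKM, just short of 2-fold. Dppa3 (7.94 and 3.98 RPKM) was just short of 2-fold in the other direction. The 9 markers summed to 105.58 RPKM in WT and 112.02 RPKM in G34R cells, with Ifitm3 as the largest part of both sums. Of the 9, 6 were lower and 3 higher in G34R cells, and the median log2 ratio was -0.83. Markers of later germ cells were scarce in both libraries. Of 8 spermatid markers, 7 were listed at 0 RPKM in both, among them Prm1, Prm2 and Tnp1, and Ldhc had 1.62 and 0.15 RPKM. The 8 oocyte markers summed to 2.91 and 0.85 RPKM, nearly all of it from Zp3 (2.69 and 0.71 RPKM). Fibroblast markers summed to 1.95 and 1 RPKM, with S100a4, Dcn and Lum listed at 0 in both libraries. Of these, Pdgfrb (0.47 and 0.06 RPKM) was past 2-fold down and Thy1 (1.18 and 0.71 RPKM) was the highest. Primitive endoderm markers summed to 13.76 RPKM in WT and 24.88 RPKM in G34R cells. Of these 8, Gata6 (0.30 and 1.09 RPKM), Sox17 (0.18 and 0.56 RPKM) and Gata4 (0.50 and 1.18 RPKM) were past 2-fold up, and Lama1 was the highest with 11.56 and 20.26 RPKM. Over all expressed probes 5.79% were up. The share was 12.7% from 0.25 to 1 RPKM in the higher library, the class of Sox17. From 1 to 5 RPKM, the class of Gata4 and Gata6, it was 5.31%. The part of these cell type markers in the levels of the 10 genes was not tested.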

How the data were processed

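RNA-seq was made from total RNA of 1 WT and 1 G34R culture (500 ng, stranded, 12 cycles, 50 bp single-end reads). Reads had been mapped to mm9 with STAR 2.4.2a, and the authors deposited RPKM per gene from Seqmonk, which counted primary alignments by strand over merged isoforms with a transcript length correction. Raw counts were not used here, so the depth is an estimate.

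Ratios are log2 (G34R/WT RPKM), and any value below 0.01 RPKM was raised to 0.01 first. A gene past 2-fold needed at least 0.25 RPKM in 1 or both samples. Probes were matched by span to GENCODE M1, built on the same assembly (26055 of 26127), and exon lengths, which include retained introns, gave estimated reads. Intervals are exact (Clopper-Pearson for ratios, Poisson for levels). Depth and intervals were checked on simulated data. Older symbols were matched through RefSeq synonyms.

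The genes and lists were chosen with earlier results of these data known. Named genes were the 10 genes, their nearest expressed neighbours, and from each list those past 2-fold and the 2 most abundant. Others (Piwil1, Piwil4, Prmt5, Mov10, Tex19.2 where it is a paralogue, Sycp1, Sycp3, Dppa3, the spermatid and fibroblast markers at 0 and the neighbours of Dnmt1) were added after their values were seen. Alternatives were other pseudocounts, scalings, filters and folds. Python 3.11.15, NumPy 2.4.6, pandas 2.3.3, SciPy 1.17.1 and matplotlib 3.10.9 were used.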

Additional observations from a re-analysis of the deposited data

How the results depend on the processing

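With 1 library per cell line no value has a replicate error. No paired analysis was possible because each cell line has 1 library. None of the 10 genes changed direction under any alternative, but these alternatives could not have changed one. Adding the same RPKM to both values keeps the direction of a ratio. The scalings added only 0.046 and 0.057 to every log2 ratio, and the chromosome medians lay between -0.1 and 0. The log2 ratio smallest in size was -0.52 (Tex19.1). Of 60 values recomputed for single genes, 49 stayed within their counting interval and 11 moved out of it, 9 of them with 1 RPKM added and 2 with 0.1 RPKM added, which shrinks ratios of weak genes by construction. With 1 RPKM added the log2 ratio of Asz1 was -0.79 and it no longer passed 2-fold, which left 3 genes down. The median over the 10 genes was -0.56 with 1 RPKM added and -0.99 over those with at least 1 RPKM, a setting chosen after seeing the data. The number of genes up was 3 at 1.5-fold and 0 at 3-fold. The number of genes down lay between 3 and 5 under all settings.

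Over all probes, 1289 down and 774 up became 356 and 196 with 1 RPKM added, 2877 and 1445 with no filter, 689 and 439 with at least 1 RPKM, 2422 and 1780 at 1.5-fold, and 721 and 331 at 3-fold. With 1 RPKM added, 4 other piRNA pathway genes and 1 other germ cell RNA-binding gene were down. So were 7 of the other germline genes known for promoter methylation, and no primitive endoderm marker was up. The median of the ES cell markers turned from -0.03 to 0.01 with equal RPKM sums. Depth limits Tdrd1, Tdrd9 and Asz1, which had 107 reads or fewer in G34R cells.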
